A study of Mus musculus with 10 samples.

Results

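The genes described here carry inflammatory signals from the cytokine TNF and from Toll-like receptors to the transcription factor NF-kB, measured by RNA sequencing in mouse spinal cord. They were chosen by symbol and are 10 of the 21936 genes of the deposited table: the ligand gene Tnf, the receptor genes Tlr2 and Tlr4, the signal carriers Myd88 and Irak2, the feedback inhibitors Tnfaip3 and Nfkbia, and the NF-kB subunit genes Nfkb1, Nfkb2 and Relb. All 10 were found and all 10 passed the filter on low counts, Tnf only through the EAE group, as given below. The 10 samples are spinal cord of wild-type mice at day 14 of experimental autoimmune encephalomyelitis (EAE), a model of multiple sclerosis driven by immune attack on myelin. The sample titles form 2 groups of 5, Nar for naringenin, a flavonoid of citrus fruit, and EAE. The treatment field reads naringenin for every sample, so the groups rest on the titles. The sample descriptions and the deposited columns carry the matching names CNar and, for EAE, CCK. What the EAE group was given is not known here. The sources used here give neither strain nor age, nor say that each sample is its own animal. The spread behind every p-value is therefore that between these libraries and may be technical.

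Toll-like receptors are membrane sensors of microbial products and of molecules set free by damaged tissue, and TNF is a cytokine that macrophages and microglia release. Both kinds of receptor lead through adaptor proteins and kinases to the IKK complex, which marks the inhibitor IkB for destruction and so frees NF-kB dimers to enter the nucleus. NF-kB then switches on cytokine and chemokine genes together with its own inhibitors, so that the signal limits itself. In EAE, microglia, infiltrating monocytes and astrocytes are known to use this pathway.

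Because NF-kB is known to act on several of its own regulators, the promoters of the 10 genes were searched for the kappaB motif, a sequence of 10 bases bound by NF-kB, on both strands. RefSeq windows (GRCm38.p6, 250 bases before to 50 after a start site) were found for 7 of the 10 genes. The motif occurred in a window of 4 of the 7, Tlr2, Tnfaip3, Nfkbia and Nfkb2, and in a window of 9.55% of the 27025 genes with any. By windows of the same length it was 6 of 10 for these genes and 8.46% of 32851 in all. Of the 9 stretches found, 5 are shown as examples, at least 1 for each of the 4 genes, 5′ to 3′ on the gene's strand with the motif in capitals.
Nfkbia: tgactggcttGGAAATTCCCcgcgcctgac
Tnfaip3: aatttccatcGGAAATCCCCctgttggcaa
Nfkb2, first: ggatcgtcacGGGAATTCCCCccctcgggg
Nfkb2, second: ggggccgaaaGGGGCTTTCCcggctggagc
Tlr2: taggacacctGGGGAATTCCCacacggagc
The Nfkbia stretch lies at chr12:55492657-55492686 on the minus strand, upstream of the annotated gene. The Tnfaip3 stretch, at chr10:19015403-19015432 on the minus strand, lies in an intron of the longer GENCODE M21 gene model. Both Nfkb2 stretches, at chr19:46304688-46304717 and chr19:46304716-46304745 on the plus strand, have their motif within exonic 5′ UTR of that annotation. The Tlr2 stretch lies at chr3:83841762-83841791 on the minus strand, and its motif is upstream of the annotated gene. In Nfkb2 and Tlr2 the capitals are 11 bases long where matches on both strands overlap. No match was found in the windows of Tnf, Myd88 and Irak2. A match describes letters, not binding, which was not measured.

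The samples held 14504726 to 15139706 counted reads in Nar and 16658798 to 18961501 in EAE, with no overlap, so depth and group cannot be told apart. The mitochondrial share of reads was 6.69 to 7.51% in Nar and 4.62 to 7.01% in EAE. Of the EAE samples only EAE 3 reached the Nar range, so share and group can hardly be told apart. Markers of the labelled tissue were high in all samples, with summed oligodendrocyte markers at 22490 to 36260 CPM (reads scaled to a common library total) and summed neuron markers at 3721 to 4628 CPM, against 0.868 to 1.96 CPM for 4 skeletal muscle markers. One sample stood apart from its group. On the first principal component of all tested genes, sample Nar 4 scored 16.1, among the EAE samples (8.17 to 34.9), while the other 4 Nar samples scored −35.2 to −24.6. Whether Nar 4 carries the right label cannot be told from the files, so the group it belongs to is uncertain, and results that rest on it are given with and without it.

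All 10 genes had lower fitted levels in Nar than in EAE, against 46.6% of all 14595 genes tested. By the test 1 of them fell: Irak2, a member of the IRAK kinase family that carries the signal from MyD88, was 1.43-fold lower in Nar. None rose. Fitted levels were 3.24-fold lower in Nar for Tnf, 2.34-fold for Tlr2 and 2.05-fold for Tlr4, and these did not pass. Sample Nar 4 lay within the EAE range in all 3. With Nar 4 set aside after its values were seen, 9 of the 10 genes lay below every EAE sample, against 8.7% of all genes. Tnf is among these 9 but passed the filter only through EAE, so its place in these counts is no support for a fall. By edgeR's quasi-likelihood test with Benjamini-Hochberg adjustment over all genes at 0.05, 3.93% of all genes were called, 2.36% lower and 1.58% higher. The median log2 fold change was −0.55 over the 10 genes and 0.02 over all genes tested. In whole tissue, fewer cells of a type and less RNA per cell cannot be told apart.

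**Figure D1:**
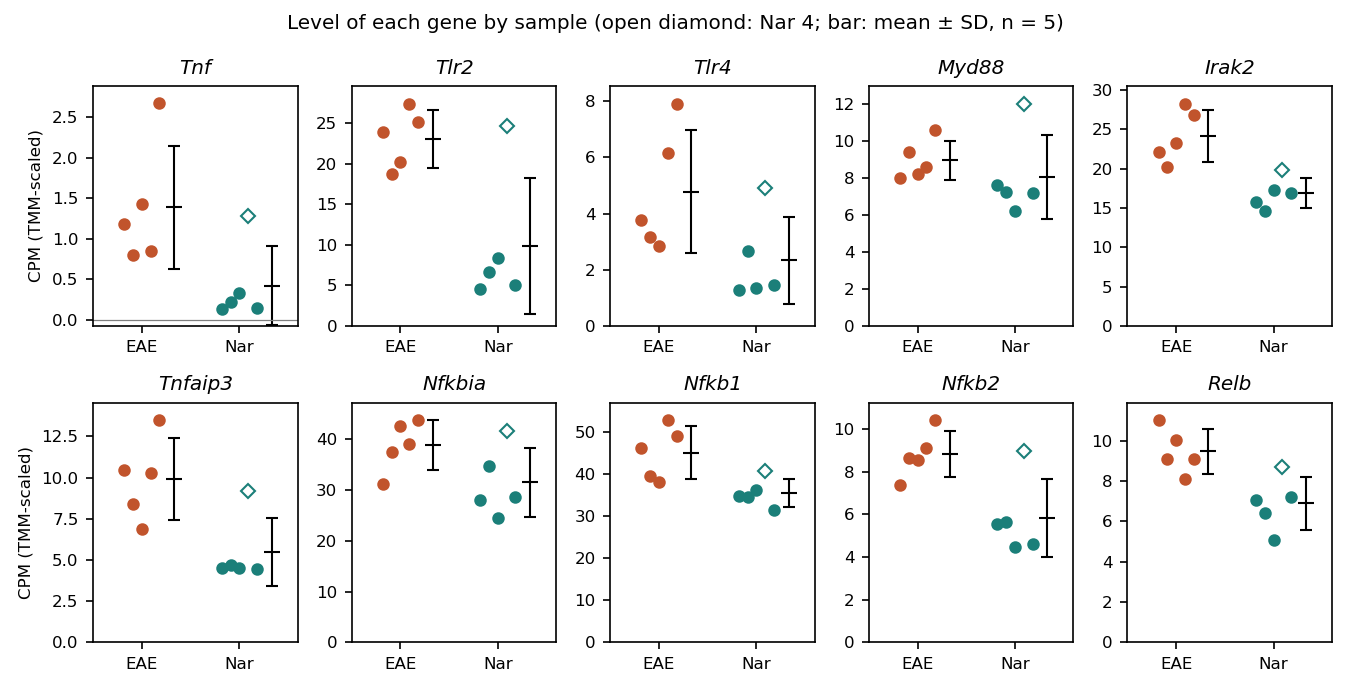
Level of each of the 10 genes (TMM-scaled CPM, y axis from 0 or, for Tnf, from just below 0) in 5 EAE and 5 Nar samples, with the group mean ± SD beside the points. The open diamond is Nar 4, the highest Nar sample in all 10 panels. Only Irak2 has every Nar sample below every EAE sample.

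Tnf codes for the cytokine itself and was close to the limit of detection. It had 2, 3, 5, 19 and 2 reads in Nar 1 to 5, or 0.135, 0.212, 0.334, 1.28 and 0.137 CPM. In EAE 1 to 5 it had 20, 15, 25, 16 and 47 reads, or 1.18, 0.795, 1.43, 0.851 and 2.67 CPM. Nar 4 thus lay inside the EAE range and the other 4 Nar samples below it, with EAE 5 highest. The filter cut-off of 0.629 CPM was reached by 1 Nar sample and 5 EAE samples, so Tnf was tested only because of its level in EAE. The fitted log2 fold change was −1.69 (SE 0.574, edgeR adjusted p = 0.111). Over the summed reads, 31 in Nar and 123 in EAE, the ratio of Nar to EAE was 0.308, with an exact 95% interval of 0.201 to 0.46 that covers counting error only. Without Nar 4 it was 12 against 123 reads, a ratio of 0.149 (0.0752 to 0.271) and a fitted log2 fold change of −2.71 (SE 0.512). No Nar sample then reaches the cut-off, so no p is given for that fit. Tnf (ENSMUSG00000024401) lies on chromosome 17, bases 35199381 to 35202007 (GRCm38).

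Tlr2 codes for the receptor of bacterial lipoproteins, which pairs with TLR1 or TLR6. Its levels were 4.53, 6.63, 8.41, 24.6 and 5.01 CPM in Nar 1 to 5. They were 23.9, 18.7, 20.2, 27.4 and 25.1 CPM in EAE 1 to 5. Nar 4 stood at the level of EAE, and the other 4 Nar samples lay below the lowest EAE level. Over all 10 samples the fitted log2 difference was −1.23 (SE 0.442, edgeR adjusted p = 0.15). Without Nar 4 it was −1.91 (SE 0.177, edgeR adjusted p = 1.34e-05), the smallest p of the 10 genes in that fit.

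Tlr4 codes for the receptor of bacterial lipopolysaccharide, which works with the co-receptors CD14 and MD-2. It had 1.28, 2.68, 1.34, 4.93 and 1.44 CPM in Nar 1 to 5. In EAE 1 to 5 it had 3.79, 3.18, 2.85, 6.17 and 7.91 CPM. The EAE samples themselves spread widely, EAE 4 and 5 standing above the other 3, and Nar 2 lay just under EAE 3. Nar minus EAE came to −1.03 on the log2 scale (SE 0.415, edgeR adjusted p = 0.173), and −1.5 without Nar 4 (SE 0.351, edgeR adjusted p = 0.0151).

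Myd88, the adaptor shared by most Toll-like receptors and the interleukin-1 receptor, differed least of the 10. It had 7.64, 7.26, 6.21, 12.01 and 7.2 CPM in Nar 1 to 5 and 7.99, 9.39, 8.21, 8.62 and 10.6 CPM in EAE 1 to 5. Nar 4 had the highest level of all 10 samples, above the whole EAE range, while the other Nar samples lay narrowly below it. The fitted difference was −0.15 on the log2 scale (SE 0.167, edgeR adjusted p = 0.62) and −0.34 without Nar 4 (SE 0.127, edgeR adjusted p = 0.116), so Myd88 passed in neither fit. Of its exon bases, 11.3% are shared with Acaa1a on the GENCODE M21 annotation, and the library protocol names no strand-marking step, so reads of that stretch may come from either gene. Acaa1a had 90.2 ± 11.3 CPM in Nar against 77.7 ± 8.44 in EAE (SD, n = 5 each; log2 difference 0.21, edgeR adjusted p = 0.193), opposite in sign to Myd88.

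Irak2, which joins MyD88 and passes the signal on to the ubiquitin ligase TRAF6, was the gene that passed. Its levels were 15.8, 14.7, 17.2, 19.8 and 16.9 CPM in Nar 1 to 5 and 22.1, 20.2, 23.2, 28.2 and 26.8 CPM in EAE 1 to 5. Every Nar sample lay below every EAE sample, which was so for 3.12% of all genes tested (5.79% in either direction). Nar 4 was the highest Nar sample here too, just under EAE 2. The log2 fold change was −0.52 (SE 0.109, edgeR adjusted p = 0.021), or −0.58 without Nar 4 (edgeR adjusted p = 0.00342). The call ended without Nar 1 (edgeR adjusted p = 0.0611), Nar 5 (0.0562) or EAE 5 (0.0514), and with the mitochondrial share of reads as a covariate (0.227, log2 fold change −0.35). Irak2 (ENSMUSG00000060477) lies on chromosome 6, bases 113638467 to 113695026, and shares 4.44% of its exon bases with the gene model Gm43963.

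Tnfaip3, the first of the feedback inhibitors, codes for a ubiquitin-editing enzyme that shuts off signalling from TNF and Toll-like receptors. It had 4.53, 4.72, 4.54, 9.18 and 4.46 CPM in Nar 1 to 5 and 10.5, 8.43, 6.9, 10.3 and 13.5 CPM in EAE 1 to 5. Apart from Nar 4 the Nar samples lay close together and below all EAE samples. The fitted difference was −0.85 on the log2 scale (SE 0.231, edgeR adjusted p = 0.0584), just short of the threshold, and −1.12 without Nar 4 (SE 0.18, edgeR adjusted p = 0.00105). It also passed without EAE 3 (edgeR adjusted p = 0.0305).

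Nfkbia codes for IkB alpha, the inhibitor that holds NF-kB in the cytoplasm, and NF-kB is known to induce it. Its levels were 28.0, 34.7, 24.4, 41.5 and 28.5 CPM in Nar 1 to 5 and 31.2, 37.4, 42.6, 38.9 and 43.6 CPM in EAE 1 to 5. It was the one gene of the 10 whose groups overlapped even without Nar 4, since Nar 2 lay above EAE 1. Nar minus EAE came to −0.3 on the log2 scale (SE 0.136, edgeR adjusted p = 0.21), and −0.42 without Nar 4 (SE 0.115, edgeR adjusted p = 0.031). Both inhibitor genes have a kappaB stretch among those printed above. Whether their fold changes differ was not tested.

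Nfkb1 codes for the precursor of the p50 subunit of the canonical dimer. It had 34.8, 34.5, 36.2, 40.8 and 31.6 CPM in Nar 1 to 5 and 46.2, 39.5, 38.1, 52.8 and 49.2 CPM in EAE 1 to 5. Nar 4 lay above EAE 2 and EAE 3 and below the others. The log2 fold change was −0.34 (SE 0.0986, edgeR adjusted p = 0.0666), and it passed without Nar 4 (−0.4, edgeR adjusted p = 0.0203) or without EAE 3 (−0.4, edgeR adjusted p = 0.0295).

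Nfkb2 and Relb code for the subunits of the noncanonical dimer, p52 (made from its precursor) and RelB. Nfkb2 had 5.54, 5.64, 4.47, 8.97 and 4.6 CPM in Nar 1 to 5 and 7.4, 8.64, 8.55, 9.1 and 10.4 CPM in EAE 1 to 5. Nar 4 lay among the EAE samples and the other Nar samples lay apart from them. The log2 fold change was −0.59 (SE 0.182, edgeR adjusted p = 0.0835), and −0.8 without Nar 4 (SE 0.141, edgeR adjusted p = 0.00202). Of its exon bases, 18.1% are shared with Psd and the model AC114539.1. Psd rose in Nar by 0.32 on the log2 scale (edgeR adjusted p = 0.0464), the opposite direction to Nfkb2, so reads that cannot be assigned between them make the Nfkb2 value uncertain.

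Relb had 7.03, 6.42, 5.07, 8.7 and 7.2 CPM in Nar 1 to 5 and 11.01, 9.07, 10.04, 8.08 and 9.1 CPM in EAE 1 to 5. Here EAE 1 was highest and EAE 4 lowest, unlike the receptor genes, of which EAE 4 and 5 held the highest levels. Nar 4 lay above EAE 4 only. The log2 fold change was −0.46 (SE 0.145, edgeR adjusted p = 0.0905), and −0.56 without Nar 4 (SE 0.14, edgeR adjusted p = 0.0218).

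**Figure D2:**
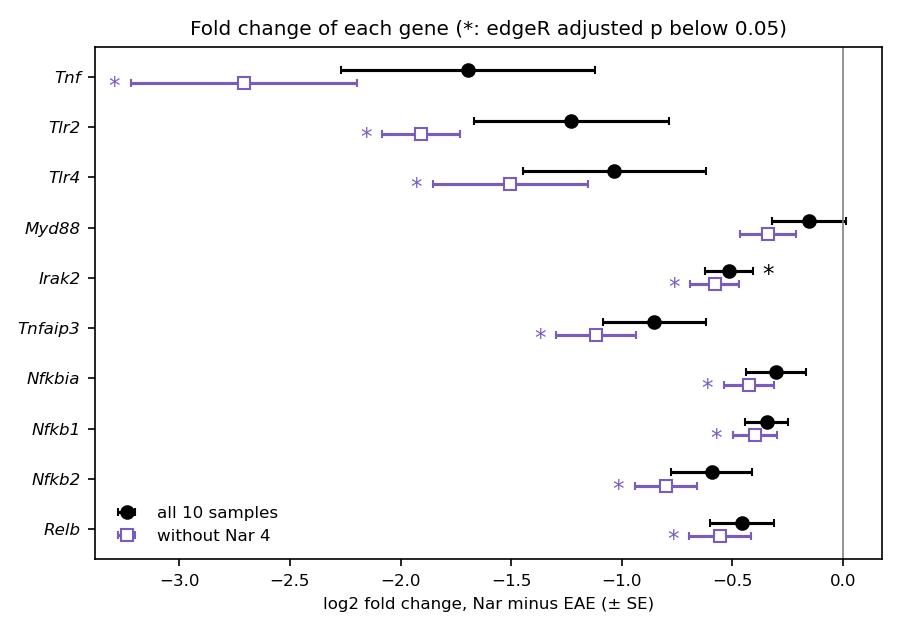
Log2 fold change (Nar minus EAE, ± SE from edgeR) of the 10 genes over all 10 samples (filled circles) and without Nar 4 (open squares), with stars where the adjusted p is below 0.05. Irak2 alone is starred over all samples, at −0.52, and every gene but Myd88 is starred without Nar 4, Tnf at −2.71 having entered that fit through EAE alone.

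Without Nar 4, 8 of the 9 genes with every remaining Nar sample at the filter cut-off were called lower and 0 higher, where 7.49% of all genes were called lower and 2.61% higher. Myd88 was the one that did not pass. Tnf was also under the threshold in that fit, which it entered through EAE alone. The median log2 fold change was −0.69 over the 10 genes and 0.02 over all genes. Nfkbia was the gene in which the other 4 Nar samples were not all below EAE. Nar 4 was singled out by its measured levels, so these values are a description of the other 9 samples. Nar 4 was the highest Nar sample in all 10 genes, which was so for 26.2% of all genes tested. It lay within the EAE range in 8 of them (61.2% of all genes), above it in Myd88 and below it in Irak2.

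Among the EAE samples, EAE 5 was highest in 6 of the 10 genes, EAE 4 in 3 and EAE 1 in Relb. The lowest EAE level fell to EAE 1, 2 or 3 in 3 genes each and to EAE 4 in Relb. Over the 10 samples, log2 CPM of the 45 pairs of these genes had correlations (Pearson r) from 0.528 for Myd88 and Irak2 to 0.935 for Tnf and Tlr2, with a median of 0.807. The points share libraries and the difference between groups, so this is a description only. The 5 other genes whose log2 CPM was most like the mean standardised level of the 10, of 11756 compared over 10 samples, were Csf2rb (r = 0.996), a receptor subunit for GM-CSF and related cytokines, the stress-response gene Nupr1 (0.987), the actin-branching subunit gene Arpc1b (0.986), the caspase gene Casp12 (0.986) and the adhesion receptor gene Cd44 (0.984). Of these, Cd44 passed over all samples (log2 fold change −0.93, edgeR adjusted p = 0.0465). It no longer passed when any 1 sample except Nar 4 was left out (edgeR adjusted p 0.0616 to 0.118), with no filter on low counts (0.0639) and with the mitochondrial covariate (0.334).

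Levels of different genes were compared per gene length, as FPKM (fragments scaled to gene length and library total) from the deposited table. Nfkbia was the most abundant of the 10, at 24.3 ± 3.06 FPKM in EAE and 19.3 ± 4.12 in Nar (SD, n = 5 each), and its samples lay above those of every other gene of the 10 in each group. Tlr2 followed in EAE with 7.75 ± 1.37 FPKM, then Irak2 (5.53 ± 0.872), Nfkb1 (3.79 ± 0.617) and Myd88 (3.51 ± 0.441), and each of these overlapped its neighbour in the order. Relb (2.46 ± 0.267) lay apart from Myd88, and overlapped Nfkb2 (1.94 ± 0.26), which overlapped Tnfaip3 (1.39 ± 0.369). Tlr4 (0.874 ± 0.413) and Tnf (0.854 ± 0.478) came last and overlapped, and Tlr4 also overlapped Tnfaip3. In Nar, Irak2 (3.79 ± 0.45 FPKM) stood above Tlr2 (3.23 ± 2.77), and Myd88 (3.1 ± 0.878) above Nfkb1 (2.92 ± 0.277), but in both pairs the samples overlapped.

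**Figure D3:**
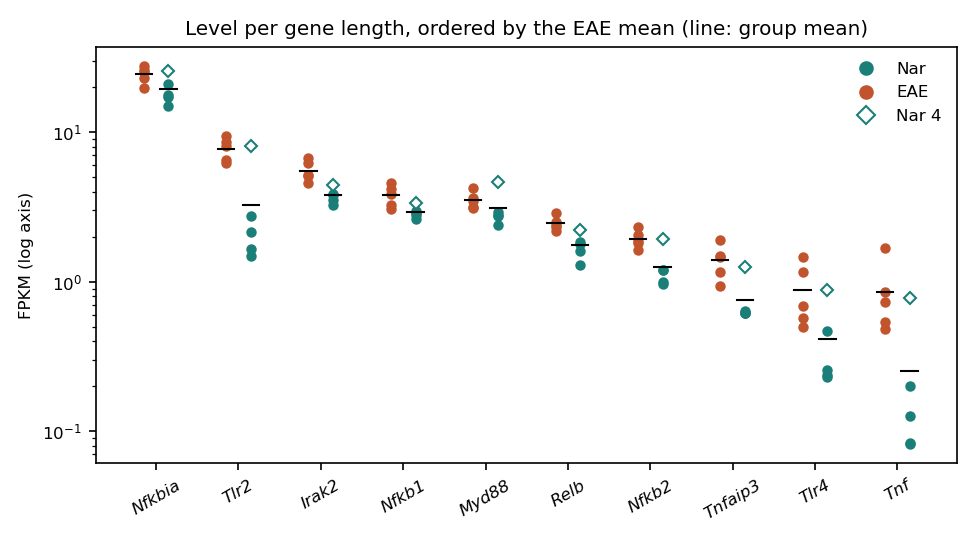
FPKM of the 10 genes per sample on a log axis, ordered by the EAE mean, with a line at each group mean and Nar 4 as an open diamond. Nfkbia lies above all others in both groups, and Tnf and Tlr4 have the lowest means.

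Markers of microglia, monocytes, T cells and astrocytes were also lower in the other 4 Nar samples than in EAE, with Nar 4 apart from those 4. Summed over 8 microglia markers the level was 266.5 to 309.4 CPM in Nar 1, 2, 3 and 5, 620.2 in Nar 4 and 515.1 to 613.9 in EAE, and 1 of the 8 markers was called lower. Summed over 9 monocyte and macrophage markers it was 17.3 to 32.7 CPM in those 4 Nar samples, 131.3 in Nar 4 and 201.2 to 631.7 in EAE, with 2 of 9 called lower. Nar 4 thus lay at or above the EAE samples in microglia markers and between the groups in monocyte markers. The 7 T cell markers found summed to 1.55 to 3.67 CPM in the 4 Nar samples, 10.3 in Nar 4 and 6.56 to 17.2 in EAE, with 1 of 5 tested called lower. With sums this low, not all 5 can have reached the filter cut-off of 0.629 CPM in every Nar sample. Some were thus tested through their level in EAE, and this call is no support for a fall. Astrocyte markers, 6 in all, summed to 5389 to 5644 CPM in those 4 samples, 8057 in Nar 4 and 7427 to 8689 in EAE, with 2 called lower. Neutrophil markers did not follow this pattern. Summed over 8 genes they were at 3.78 CPM in Nar 4, 6.93 to 10.6 in Nar 1, 2, 3 and 5, and 2.22 to 17.6 in EAE. Of these 8 genes 3 were tested and 0 called. Endothelial markers overlapped between groups (229 to 265 against 215 to 245 CPM, 0 of 5 called). In B cell and dendritic cell markers every Nar sample, Nar 4 included, lay below EAE. B cell markers summed to 1.07 to 3.64 CPM in Nar and 4.98 to 23.4 in EAE (1 of 1 tested called lower), and dendritic cell markers to 34.2 to 41.3 and 48.8 to 63.0 CPM (1 of 3 called lower). How many Nar samples reached the cut-off in the called monocyte, B cell and dendritic cell markers was not counted. Those calls may therefore also rest on genes tested through EAE. Fibroblast markers summed to 74.1 to 89.1 CPM in Nar and 118.1 to 138.6 in EAE (4 of 5 called lower), while 2 of 5 oligodendrocyte and 0 of 7 neuron markers were called higher. Of all genes tested, 2.36% were called lower and 1.58% higher. No marker of these lists had 0 reads in all samples. The part of any of these cell types, of depth or of the mitochondrial share in the differences of the 10 genes was not tested beyond the covariate fit given above. That fit can hardly tell the share from the group.

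**Figure D4:**
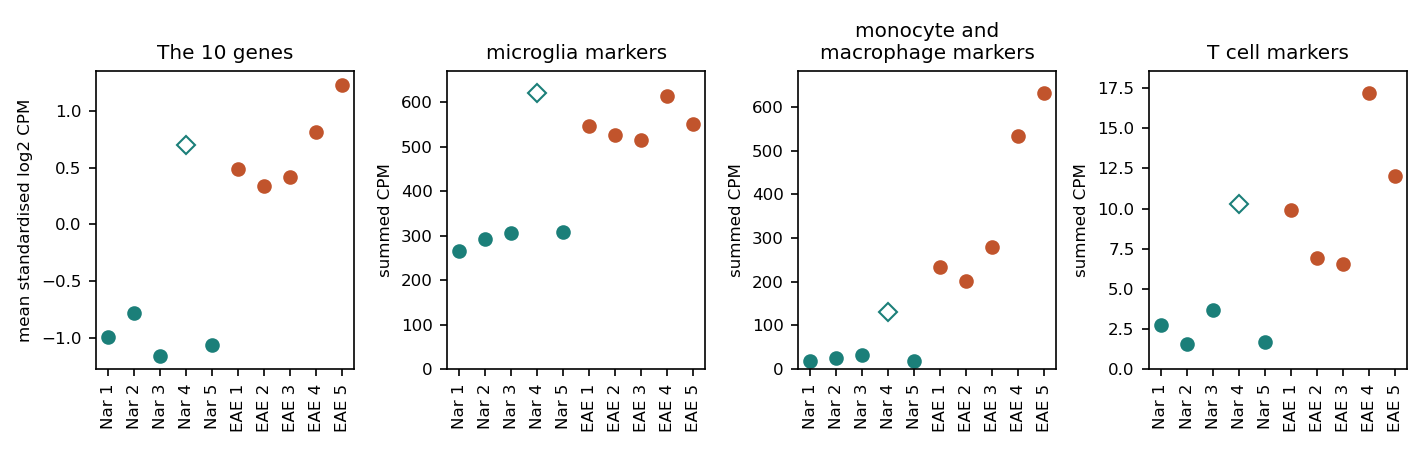
Mean standardised log2 CPM of the 10 genes (left) and summed CPM of microglia, monocyte and macrophage, and T cell markers in each sample, with Nar 4 as an open diamond. Nar 4 stands with EAE for the 10 genes, above EAE for microglia markers (620.2 CPM) and below EAE for monocyte markers (131.3 CPM).

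The other genes of the pathway were taken from 7 lists by role, 95 genes of which 86 were tested. Of these, 4 were called lower in Nar and 0 higher, near the 2.36% and 1.58% of all genes, and 70 had a log2 fold change below 0, as had 46.6% of all genes. The 4 were Tlr3, Cd14, Ikbke and Ccl3. In 14 of the 86, Ccl3 among them, fewer than 5 Nar samples reached the filter cut-off. The median was −0.33 against 0.02 over all genes tested. Without Nar 4, 30 of them were called lower and 0 higher, against 7.49% and 2.61% of all genes in that fit. In 9 of those 30 not all 4 remaining Nar samples reached the cut-off.

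Toll-like receptors and their co-receptors had the lowest median, −1.17 over 13 tested, with 2 called lower and 0 higher (2.36% and 1.58% of all genes). Tlr6 and Tlr12, in this median, each reached the filter cut-off in 3 Nar samples and 5 EAE samples. Cd14, the co-receptor that hands lipopolysaccharide to TLR4, had 6.19 ± 3.97 CPM in Nar against 16.0 ± 3.07 in EAE (SD, n = 5 each), and fell by 1.36 on the log2 scale (SE 0.326, edgeR adjusted p = 0.0463). Tlr3, the receptor of double-stranded RNA, had 24.9 ± 3.19 and 32.2 ± 2.51 CPM and fell by 0.37 (SE 0.0921, edgeR adjusted p = 0.0398). The Cd14 call ended without any 1 sample other than Nar 4 (edgeR adjusted p 0.0644 to 0.119), and leaving out Nar 1, 2, 3 or 5, or EAE 2, 4 or 5, ended the Tlr3 call (0.0598 to 0.103). Without Nar 4, 11 of the 13 were called lower (7.49% of all genes), all but Tlr5 and the MD-2 gene Ly96, among them Tlr7 and Tlr9, sensors of RNA and DNA in endosomes (log2 fold changes −1.9 and −1.51), and Unc93b1, the chaperone that takes these receptors to endosomes (−1.31, edgeR adjusted p = 3.46e-06). Tlr7, Tlr9 and Unc93b1 were picked after their values were seen. Tlr6 and Tlr12, also among the 11, reached the filter cut-off in only 2 of the remaining Nar samples. They entered that fit through EAE, so their calls are no support for a fall. Tlr8 and Tlr11 had too few reads to be tested (at most 38 and 17 in any sample).

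TNF family ligands, receptors and adaptors had a median of −0.4 over 15 tested with 0 called. Ltb, which codes for lymphotoxin beta, had 0.421 ± 0.602 CPM in Nar and 2.09 ± 0.623 in EAE and a log2 fold change of −2.29 (SE 0.594, edgeR adjusted p = 0.0518 and 0.0476 without EAE 3). Like Tnf, it reached the filter cut-off in 1 Nar sample, Nar 4, and 5 EAE samples. Tnfrsf1b, the TNF receptor found mainly on immune cells, had 9.8 ± 4.74 and 21.0 ± 6.3 CPM (log2 fold change −1.1, SE 0.299, edgeR adjusted p = 0.0701, or 0.00045 without Nar 4). Without Nar 4, 5 of this list were called lower, Ltb included (7.49% of all genes in that fit). Lta was not tested, with 2 to 14 reads per sample.

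Signalling proteins between the receptors and NF-kB were taken next. Receptor-proximal adaptors and kinases had a median of −0.08 over 12 tested, with 0 called. Of these Ticam1, the adaptor of TLR3, differed by −0.41 on the log2 scale (edgeR adjusted p = 0.161) and Ticam2, the adaptor that links it to TLR4, by −0.95 (edgeR adjusted p = 0.193, or 0.0336 without Nar 4), with 14.5% of the exon bases of Ticam2 shared with Tmed7. In the fit without Nar 4, Ticam2 reached the filter cut-off in 3 of the remaining Nar samples. The IKK complex and noncanonical kinases had a median of −0.11 over 8, with 1 called lower (2.36% of all genes). That gene was Ikbke, an IKK-related kinase induced in inflammation, at 3.41 ± 1.1 CPM in Nar against 7.06 ± 2.6 in EAE, and it fell by 1.05 on the log2 scale (SE 0.271, edgeR adjusted p = 0.0496). Leaving out Nar 1, 2, 3 or 5, or EAE 1, 4 or 5, ended its call (edgeR adjusted p 0.079 to 0.126), as did limma-voom (adjusted p = 0.0676) and limma-trend on FPKM (0.0718 to 0.0976).

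Other NF-kB subunits and IkB proteins had a median of −0.31 over 7 tested, with 0 called. Rela, the main transactivating subunit, differed by −0.27 on the log2 scale (edgeR adjusted p = 0.0895), and Nfkbie, which codes for IkB epsilon, by −0.6 (edgeR adjusted p = 0.0939, or 0.0108 without Nar 4). The list of other feedback inhibitors had a median of −0.07 over 12, with 0 called over all samples and 0 without Nar 4. It also holds Rnf31, Rbck1 and Sharpin (log2 fold changes −0.07, 0.11 and 0.09), whose products promote NF-kB signalling. The median therefore does not describe inhibitors alone. Tnip1, which binds the Tnfaip3 product, had 35.3 ± 0.994 CPM in Nar and 40.8 ± 2.75 in EAE, without overlap (log2 fold change −0.21, edgeR adjusted p = 0.0859). Tax1bp1, another partner of that enzyme, differed by −0.15 on the log2 scale (edgeR adjusted p = 0.149, or 0.0437 without Nar 2).

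Known targets of NF-kB had a median of −0.72 over 19 tested of 24, with 1 called lower (2.36% of all genes). Fewer than 5 Nar samples reached the filter cut-off in Bcl2a1d, Ccl2, Ccl3, Ccl4, Cxcl10, Il1b, Nos2, Ptx3 and Sele. The median therefore includes genes that were tested through their level in EAE. Ccl3, a chemokine for monocytes and T cells, had 0.707 ± 0.8 CPM in Nar and 3.68 ± 2.01 in EAE with a fitted log2 fold change of −2.36 (SE 0.594, edgeR adjusted p = 0.0499). It reached the filter cut-off in 1 Nar sample and 5 EAE samples, so it was tested through EAE alone and its call is no support for a fall. This call ended without any 1 sample other than Nar 4 (edgeR adjusted p 0.058 to 0.135). Without Nar 4, 9 of the 19 were called lower (7.49% of all genes in that fit). In 5 of these 9 (Bcl2a1d, Ccl3, Ccl4, Il1b and Ptx3) at most 2 of the remaining Nar samples reached the cut-off. Cxcl1, Cxcl2, Il6, Selp and Bcl2a1b were not tested, with at most 33 reads in a sample, and Bcl2a1b has near-identical copies among which the authors' counting may split reads.

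**Figure D5:**
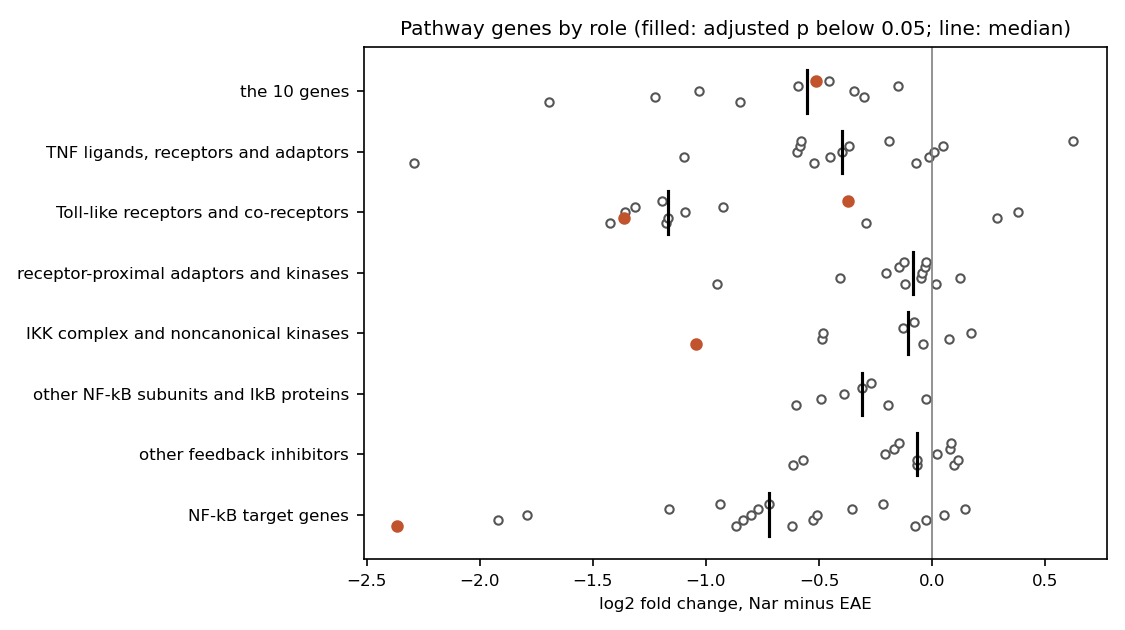
Log2 fold change (Nar minus EAE, all 10 samples) of the 10 genes and of the 86 other pathway genes tested, by role, with a line at each median and filled points where the edgeR adjusted p is below 0.05. Toll-like receptors have the lowest median, −1.17, and adaptors, IKK kinases and other feedback inhibitors have medians of −0.11 to −0.07. The list of other feedback inhibitors also holds Rnf31, Rbck1 and Sharpin, which are not inhibitors.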

How the data were processed

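RNA of 10 mouse spinal cord samples was extracted with Trizol, captured with poly-T beads and sequenced as paired-end random-primed libraries on a NovaSeq, per the labels' protocols. The submitters' processing notes name cutadapt and HISAT2 2.0.5. Which counter and annotation release were used is not stated there. The authors deposited a raw read count and an FPKM value per gene and sample, per the file headers, with 0 further sample columns. The deposited FPKM equals the count scaled to gene length and to the sample's total of counted reads (100% of 153986 values above 0.1, within 1%). Of 21936 gene identifiers, 21894 are in GENCODE M21 (GRCm38), 21694 with the same start and end.

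Groups follow the titles. Counts were filtered with filterByExpr (minimum count 10), which left 14595 genes, and fitted with edgeR 4.0.16 in R 4.3.3 (TMM factors, robust quasi-likelihood). P-values are two-sided and adjusted over all tested genes by Benjamini-Hochberg, with a threshold of 0.05. The SE was taken as the absolute log2 difference over the root of the F statistic. CPM uses TMM-scaled totals, and log2 CPM a prior count of 2. Within groups, every pair of samples differed beyond counting error (chi-square over its degrees of freedom at least 4.06). Alternatives used limma 3.58.1 (voom, or trend on log2 FPKM with a pseudocount of 1 or 0.1) and DESeq2 1.42.0, other factors, filters and covariates, the replicate number as a block, and each sample left out. On simulated counts of 14595 genes for this comparison, edgeR found 49 of 100 genes given a log2 change of 0.5 and 80 of 100 given 1, and 4 of its 133 calls were false. These counts were drawn independently, with no sample set apart as Nar 4 is. Only genes with a mean of at least 1 CPM were changed. The rates therefore may not hold for the real samples or for genes as low as Tnf.

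The 10 genes, the pathway and marker lists and the alternatives were chosen with earlier results of these data known. Named genes are the 10, the called genes of each list (at most 3), or else the 2 of smallest p whose mean reached 1 CPM, and the 5 most alike in pattern with a mean of at least 5 CPM.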

Additional observations from a re-analysis of the deposited data

Results flagged for a closer look

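In 44 groups of 5 samples examined (the 10 genes and the 12 pathway genes named by rule, in each group), 9 held a sample far from the other 4. In all 9 that sample was Nar 4, and in all 9 it was the highest of its group. Among the 10 genes it had 1.28 CPM of Tnf (next highest Nar sample 0.334), 24.6 CPM of Tlr2 (8.41), 12.01 CPM of Myd88 (7.64), 9.18 CPM of Tnfaip3 (4.72) and 8.97 CPM of Nfkb2 (5.64). Among the other pathway genes it had 1.48 CPM of Ltb (0.282), 18.2 CPM of Tnfrsf1b (8.39), 13.2 CPM of Cd14 (5.14) and 2.09 CPM of Ccl3 (0.634). The 9 flags come from 1 library and are not independent of each other. The rule flags about 1 in 20 groups when values are independent and normally spread, so 9 of 44 cannot be set against that rate. Nar 4 also stood apart from its group on the first principal component of all tested genes. No EAE sample was far from its group in these genes.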

How the results depend on the processing

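The log2 fold change stayed below 0 for 9 of the 10 genes under every alternative run. It turned for Myd88 alone, to 0.00189 with the mitochondrial share as a covariate (edgeR adjusted p = 0.997), and the cause was not tested. The same covariate moved Tlr4 from −1.03 to −0.05 (edgeR adjusted p = 0.972), Tnfaip3 from −0.85 to −0.38 and Nfkb1 from −0.34 to −0.11. Apart from EAE 3, every EAE sample had a lower share than every Nar sample, so this fit can hardly tell share from group. A pseudocount of 1 on FPKM gave Tnf −0.56 and Tlr4 −0.4, below Tlr2 (−1.22) in size, so the order of the genes by fold depends on the scale. With the covariate 197 genes were called in all (574 in the reported fit), 0 of the 10 and 0 other pathway genes. DESeq2's Wald test called 1287 genes, 5 of the 10 (Irak2, Tnfaip3, Nfkb1, Nfkb2 and Relb) and 20 other pathway genes, 19 lower and 1 higher (Tnfsf10, adjusted p = 0.0466). Limma-voom called 794 genes, 5 of the 10 (Irak2, Tnfaip3, Tnf, Tlr2 and Nfkb2) and 10 others. Limma-trend on FPKM called 8 other pathway genes with a pseudocount of 1 or 0.1, and 7 with no filter on low values. With no filter on low counts 2 were called. Leaving out each sample in turn gave 161 to 1486 genes, 0 to 9 of the 10 and 0 to 30 others. These others were all lower except 1 without Nar 5, Tnfsf10 (0.76, edgeR adjusted p = 0.046). The count of the 10 was 0 without Nar 1, Nar 5 or EAE 5, 3 without EAE 3 and 9 without Nar 4. None of the 10 was called higher under any alternative. Same-numbered samples had correlations of −0.227 to 0.161 in their deviations from the group mean, each below the highest with another number. That sets 1 value against the best of several, so whether the numbers pair samples cannot be told from it. With the replicate number as a block 636 genes were called, 2 of the 10 (Irak2 and Tnfaip3, edgeR adjusted p = 0.0418 for the latter) and 11 others. Under the block Ccl3 lost its call (0.0511), and Ltb (0.0268) and Tnfrsf1b (0.00879) gained one. Over all samples Tnf, Ltb and Ccl3 each reached the filter cut-off in 1 Nar sample and 5 EAE samples. Their calls under any alternative are therefore no support for a fall. Depth limits Tnf, with 2 to 5 reads in 4 of the Nar samples. Tnf was not tested at a mean of at least 1 CPM.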

Other observations

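In 15 of the 86 other pathway genes tested Nar 4 lay above every EAE sample (17.4%, against 20.9% of all genes tested). Of these, 3 were picked after their values were seen. One was Ly86, which codes for the partner protein of the Toll-like receptor homologue CD180. Nar 4 had 87.0 CPM of it, EAE 35.9 to 54.6 and the remaining Nar samples 16.8 to 25.1. Ptx3, a soluble pattern-recognition protein gene, was at 22.0 CPM in Nar 4, against 6.28 to 13.9 in EAE and 0.406 to 1.48 in the remaining Nar samples. Cxcl10, a chemokine gene induced by interferon and NF-kB, was at 45.4 CPM in Nar 4, against 6.39 to 37.2 in EAE and 0.609 to 6.54 in the remaining Nar samples. The ligand gene Tnfsf10, also picked after its values were seen, had 13.4 ± 4.21 CPM in Nar against 8.7 ± 1.5 in EAE (SD, n = 5 each, log2 fold change 0.62, edgeR adjusted p = 0.112), which did not pass there.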
